A study of Mus musculus with 24 samples.

Results

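The integrated stress response genes described here are Atf4, Atf5, Atf3, Ddit3, Trib3, Ppp1r15a, Asns, Psat1, Chac1 and Sesn2, that is 10 of the 55469 genes in each tissue's table. They were chosen by name as the transcription factor Atf4 with genes that it is known to act on or with, and were found in the tables through their Ensembl identifiers. They filled 11 rows, because Ddit3 had a second entry, which was listed at 0 in all samples and was left out. The samples are 12 brains and 12 livers, that is 3 replicates (lettered A to C) of each of 4 genotypes per tissue, from mice that lacked a phenylalanine tRNA gene and from wild-type (WT) mice. Mice of the tRNA-Phe-1-1-/- line were homozygous for the deletion of tRNA-Phe-1-1, and those of the tRNA-Phe-2-1-/- line and of the tRNA-Phe-3-1-/- line for the deletion of the gene in their name. The mice were 10 weeks old and of C57BL/6N background. The study's methods describe males on normal chow, matched for age and litter. They also name mice of different litters, and the reporting summary gives both sexes for the study as a whole. Each deletion was made by CRISPR-Cas9 in the germ line and bred on, so the gene was missing from every cell and each genotype is described as 1 line. RNA was total RNA of brain or liver tissue, and the sources do not say whether the brain and liver samples with the same letter are from the same mouse.

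The integrated stress response starts when one of several kinases phosphorylates the translation factor eIF2. Protein synthesis then slows in general, while the mRNA of Atf4 is translated more, and Atf4 protein switches on genes for amino acid synthesis, amino acid transport and tRNA charging. The kinase Gcn2 is best known for its activation by uncharged tRNA and the kinase Perk for its activation in the endoplasmic reticulum (ER), and Atf4 itself is controlled largely at translation, which mRNA levels do not measure.

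Genes switched on by Atf4 often carry a C/EBP-ATF response element in their promoters, and the members with such a run of bases are shown first. The letters TGATGNAA were searched on both strands from 250 bases before to 50 bases after each RefSeq start site (GRCm38.p6). They stood in the promoters of 4 of the 10 members, against 4.51% of 27025 genes with a promoter in the same table. The cyclic AMP response element TGACGTCA stood in 1 member, Ppp1r15a, against 2.03% of genes, and the 2 patterns do not overlap in these windows. Each line below holds 48 bases read along the gene's strand, 5′ to 3′, with the match in capitals; a match on the other strand reads as its reverse complement. A match is a run of letters and was not tested for binding.
Asns, chr6:7693205-7693252, minus strand, match 23 bases before the start: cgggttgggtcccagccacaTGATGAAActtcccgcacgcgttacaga
Atf3, chr1:191183416-191183463, minus strand, match 110 bases before the start: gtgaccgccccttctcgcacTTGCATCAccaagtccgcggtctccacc
Chac1, chr2:119351029-119351076, plus strand, match 193 bases before the start: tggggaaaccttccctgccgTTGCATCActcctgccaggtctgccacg
Trib3, chr2:152344019-152344066, minus strand, match 14 bases after the start: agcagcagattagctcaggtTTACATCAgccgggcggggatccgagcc
Ppp1r15a, chr7:45526253-45526300, minus strand, match 12 bases before the start: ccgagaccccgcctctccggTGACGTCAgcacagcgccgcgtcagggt

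Total reads recovered from the normalised counts ranged from 30365760 to 46225360 per brain sample and from 32276896 to 51584522 per liver sample. The labelled tissues matched their markers, since the sum of 4 neuron markers lay between 61646 and 121001 normalised counts in the brain and between 52.0 and 456 in the liver, and the sum of 4 hepatocyte markers lay at or above 1821510 in every liver sample and at or below 50352 in every brain sample. Most of the highest brain sum was Ttr, which ran from 5.01 to 49266 between brain samples. Alb, Apoa1 and Cps1 reached at most 877, 134 and 123 there. The part of Ttr-expressing cells in the brain values was not tested. The deleted tRNA genes were not measured here, so the genotype labels were not checked from the tables. All 10 members passed the filter of a mean of at least 10 normalised counts in both tissues, and every difference given below is on the scale of log2(normalised count + 1) with its standard error, tested with limma and adjusted over all 19228 brain or 15856 liver genes. The 3 comparisons with WT in a tissue share the same 3 WT samples.

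In WT tissue the order of the members depended on the organ. Per kilobase of canonical transcript, Atf4 stood highest in the WT brain at 1616 ± 55.8 normalised counts (SD, n = 3), followed by Psat1, which makes phosphoserine in serine synthesis, at 984 ± 56.1. Asns, the enzyme that makes asparagine, was at 606 ± 9.49 and Ddit3, the transcription factor CHOP, at 527 ± 59.3. Ppp1r15a, the phosphatase subunit GADD34 that reverses eIF2 phosphorylation, followed at 145 ± 42.1. Chac1, which breaks down glutathione, at 88.5 ± 11.5 and Atf5, a relative of Atf4, at 86.5 ± 7.13 differed by less than their spread. Sesn2, a stress-induced inhibitor of mTORC1 signalling, was at 67.2 ± 8.80. The lowest levels in the brain were those of Trib3, a pseudokinase that binds Akt and Atf4, at 6.62 ± 3.96, and of Atf3, a stress-induced transcription factor, at 4.90 ± 2.28, again closer than their spread.

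In the WT liver Atf5 at 2161 ± 101 and Atf4 at 1985 ± 261 normalised counts per kilobase led, and the Atf5 mean lay within the spread of Atf4. Asns stood at 219 ± 163 and Ddit3 at 143 ± 21.01, the first with a spread that reached well below the second. Ppp1r15a was at 98.4 ± 5.77. Below it, Trib3 at 65.3 ± 28.0, Sesn2 at 49.2 ± 9.91, Psat1 at 46.5 ± 22.8 and Chac1 at 35.7 ± 9.39 could not be ordered beyond their spread, and Atf3 was lowest at 20.6 ± 4.82. Levels of the 2 tissues come from tables that were normalised separately and were not compared.

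**Figure D1:**
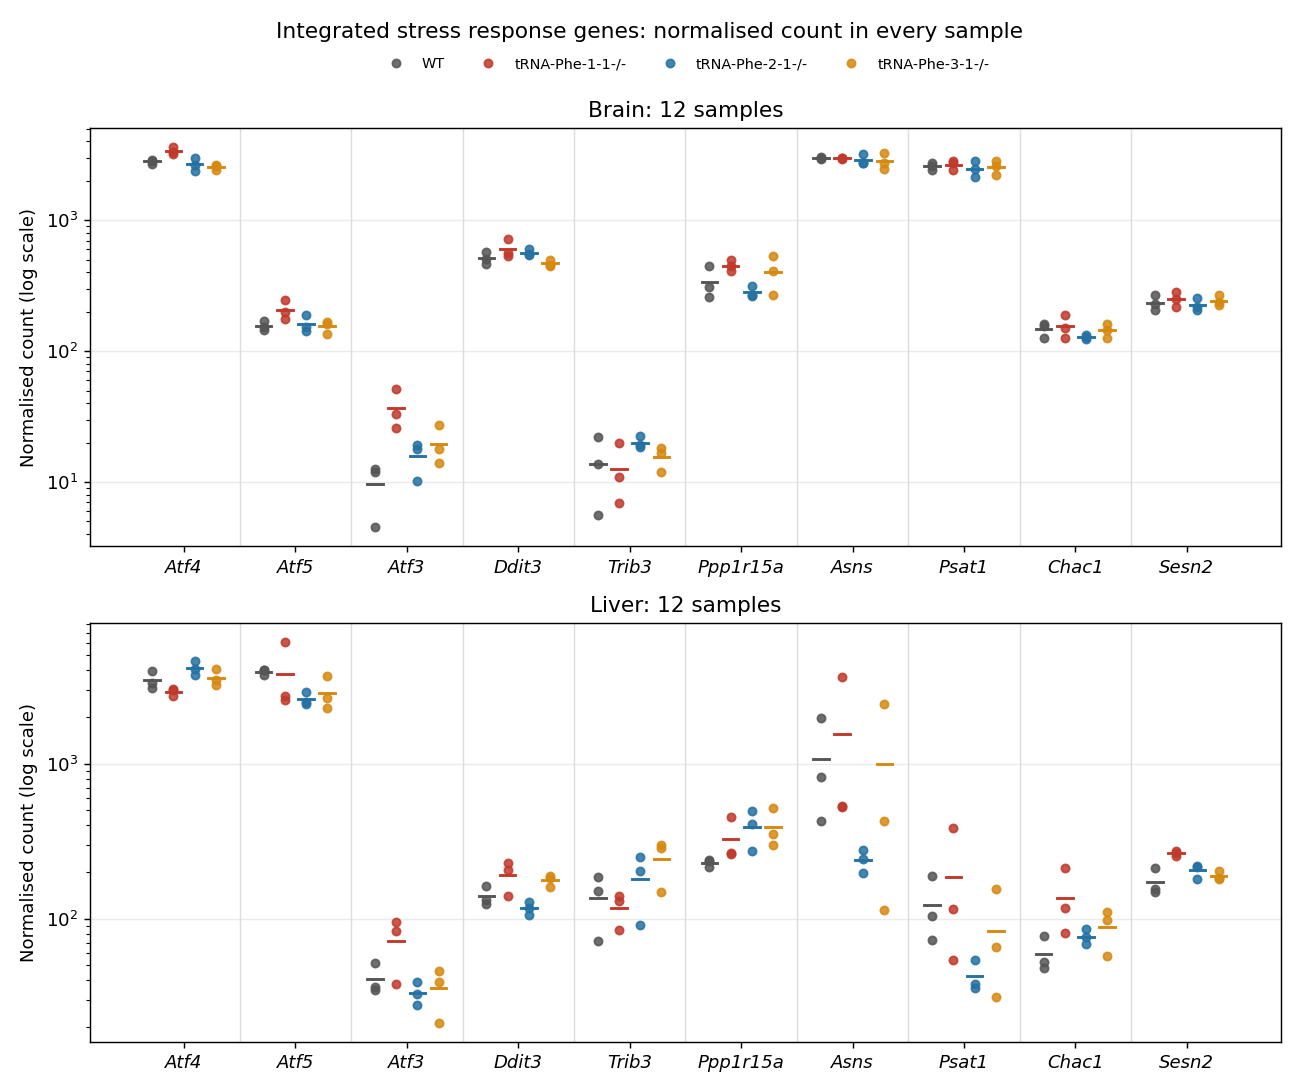
Normalised count of each member (vertical axis, log scale) in the 12 brain samples (top) and the 12 liver samples (bottom); each point is 1 sample, each short line the mean of 3, and colours mark the genotype. Brain Atf4 and Atf3 lie higher in all 3 tRNA-Phe-1-1-/- samples than in WT, and liver Asns spans 114 to 3599 normalised counts.

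Across the 10 members in the brain, no gene passed the threshold in any knockout compared to WT mice, and the estimates stood furthest from 0 for Atf3 in tRNA-Phe-1-1-/- mice. With limma the count was 0 of 10 for tRNA-Phe-1-1-/-, against 1.05% of all genes tested, and 3 members had an unadjusted p under 0.05, against 15.9%. It was 0 of 10 for tRNA-Phe-2-1-/-, against 0% of all genes, with 0 members at an unadjusted p under 0.05, against 5.57%. For tRNA-Phe-3-1-/- it was also 0 of 10, against 0%, with 1 member at an unadjusted p under 0.05, against 12.3%. By edgeR on the recovered reads these counts were also 0, 0 and 0. In the tRNA-Phe-1-1-/- brain the estimate was above 0 for 9 of 10 members, with a median log2 difference of 0.16, compared with 49.9% and -0.00059 for all genes. The estimates were above 0 for 4 of 10 members in tRNA-Phe-2-1-/- (49.7% of all genes) and for 4 of 10 in tRNA-Phe-3-1-/- (50.4%), with medians of -0.04 and -0.02. Because each sample is bulk tissue RNA, fewer cells of a type and less RNA per cell cannot be told apart.

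Atf4, at chr15:80255184-80257545 (GRCm38, RefSeq, as for all gene positions below) and listed as ENSMUSG00000042406.8, was measured at 2831, 2708 and 2899.6 normalised counts in the WT brain. The tRNA-Phe-1-1-/- brain had 3315, 3645 and 3227, the tRNA-Phe-2-1-/- brain 2657, 2382 and 2966, and the tRNA-Phe-3-1-/- brain 2626, 2406 and 2586. All 3 tRNA-Phe-1-1-/- samples were above all other brain samples, and all 3 tRNA-Phe-3-1-/- samples were below WT. The log2 difference from WT was 0.27 ± 0.09 in tRNA-Phe-1-1-/- mice (95% interval 0.08 to 0.46, adjusted p = 0.157) and -0.15 ± 0.09 in tRNA-Phe-3-1-/- mice (adjusted p = 0.523).

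Between lines, Atf4 was higher in the tRNA-Phe-1-1-/- brain than in the tRNA-Phe-3-1-/- brain by 0.42 ± 0.09 on the log2 scale (adjusted p = 0.0369; 1 of 10 members called, against 2.11% of all genes). Its difference from tRNA-Phe-2-1-/- was 0.35 ± 0.09 (adjusted p = 0.0940). The call against tRNA-Phe-3-1-/- was lost, with adjusted p between 0.0510 and 0.147 and a log2 difference between 0.37 and 0.45, on leaving out any replicate of WT, of tRNA-Phe-1-1-/- or of tRNA-Phe-3-1-/-, or tRNA-Phe-2-1-/- replicate A. With limma and with edgeR, 0 of 10 members were called between tRNA-Phe-1-1-/- and the tRNA-Phe-2-1-/- line (0.53% of all genes; 3 members at an unadjusted p under 0.05, against 13.7%) and 0 of 10 between tRNA-Phe-2-1-/- and the tRNA-Phe-3-1-/- line (0%; 0 members unadjusted, against 9.93%), and the test of any difference among the 4 genotypes called 0 of 10 members, against 0.634% of all genes, with Atf4 at an adjusted p of 0.102.

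Atf3 (ENSMUSG00000026628.13, chr1:191170296-191183333) was low in the brain. WT samples had 12.0, 12.7 and 4.51 normalised counts and tRNA-Phe-1-1-/- samples 33.2, 26.0 and 51.1. The other lines had 10.3, 17.9 and 19.2 (tRNA-Phe-2-1-/-) and 14.0, 27.1 and 17.8 (tRNA-Phe-3-1-/-). Every tRNA-Phe-1-1-/- sample and every tRNA-Phe-3-1-/- sample stood above the highest WT sample, while the tRNA-Phe-2-1-/- samples overlapped WT. The log2 differences from WT were 1.87 ± 0.44 (95% interval 0.91 to 2.84, adjusted p = 0.0752), 0.71 ± 0.44 (adjusted p = 0.921) and 1.00 ± 0.44 (adjusted p = 0.391) for the lines in the order in which they are listed here.

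Atf5 (ENSMUSG00000038539.15, chr7:44812256-44816658) had 171, 154 and 146 normalised counts in the WT brain and 201, 245 and 176 in the tRNA-Phe-1-1-/- brain. These groups did not overlap, and the log2 difference was 0.39 ± 0.16 (adjusted p = 0.259). With Atf4 and Atf3 it made up the 3 members that lay above WT in every tRNA-Phe-1-1-/- brain sample, 3 of 10 against 25.2% of all genes whose groups did not overlap. None of the members was below WT in all 3 samples there. In the tRNA-Phe-2-1-/- brain the groups overlapped for all 10 members, against 11.4% of all genes without overlap, and in the tRNA-Phe-3-1-/- brain Atf3 above and Atf4 below WT were the 2 of 10 without overlap, against 16.4%.

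The stress effectors Ddit3, Trib3 and Ppp1r15a gave brain samples that overlapped WT in all 3 lines. Ddit3 (ENSMUSG00000025408.15, chr10:127290793-127296291) ranged from 450.4 to 725 normalised counts over the 12 brain samples and its log2 difference was 0.22 ± 0.13 in tRNA-Phe-1-1-/- mice (adjusted p = 0.414). In the GENCODE genes for GRCm39, Ddit3 shares its strand with the long non-coding genes Gm20492 and Gm66222. Estimated reads may be split between them if the study's annotation also held them, which was not checked. Ppp1r15a (ENSMUSG00000040435.12, chr7:45522917-45526268) had 448, 258 and 310.4 in WT and 445, 410.4 and 493 in tRNA-Phe-1-1-/-, a log2 difference of 0.44 ± 0.24 (adjusted p = 0.409). Trib3 (ENSMUSG00000032715.9, chr2:152337425-152344060) lay between 5.64 and 22.3 in all brain samples, and its estimate in tRNA-Phe-1-1-/- mice, -0.07 ± 0.48, was the single one below 0 there.

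Asns (ENSMUSG00000029752.12, chr6:7675165-7693209) was one of the steadiest members in the brain. WT samples had 3022, 2965 and 2930.1 normalised counts and tRNA-Phe-1-1-/- samples 2938, 3008 and 2979. The groups interleaved, and the log2 difference was 0.00 ± 0.10 (95% interval -0.21 to 0.22, adjusted p = 0.998). Psat1 (ENSMUSG00000024640.9, chr19:15905123-15925059), Chac1 (ENSMUSG00000027313.3, chr2:119351242-119354326) and Sesn2 (ENSMUSG00000028893.8, chr4:132492804-132510456) had log2 differences of 0.04 ± 0.12, 0.07 ± 0.17 and 0.10 ± 0.14 in the same comparison. Brains of tRNA-Phe-2-1-/- mice and likewise those of tRNA-Phe-3-1-/- mice gave estimates for these 4 genes between -0.19 and 0.06.

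Sums of oligodendrocyte markers lay below WT in all tRNA-Phe-1-1-/- brain samples, and also in replicates A and B of both other lines. The 4 markers, none at 0, summed to 33496 to 61776 normalised counts in tRNA-Phe-1-1-/- and to 87058 to 102597 in WT. Replicates A, B and C had 60771, 48182 and 112985 in tRNA-Phe-2-1-/- and 57709, 76367 and 126365 in tRNA-Phe-3-1-/- brains. The 3 erythroid markers summed to 5344 to 6734 in tRNA-Phe-1-1-/- and to 10696 to 19129 in WT. Their sums were 4521 to 10845 in tRNA-Phe-2-1-/- and 11317 to 25612 in tRNA-Phe-3-1-/- brains. The 4 endothelial markers summed to 2241 to 2262 in tRNA-Phe-1-1-/- and to 2624 to 2952 in WT. Those sums were 2628 to 2762 in tRNA-Phe-2-1-/- and 2496 to 2715 in tRNA-Phe-3-1-/- brains. The part of these marker sums in the brain values above was not tested.

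**Figure D2:**
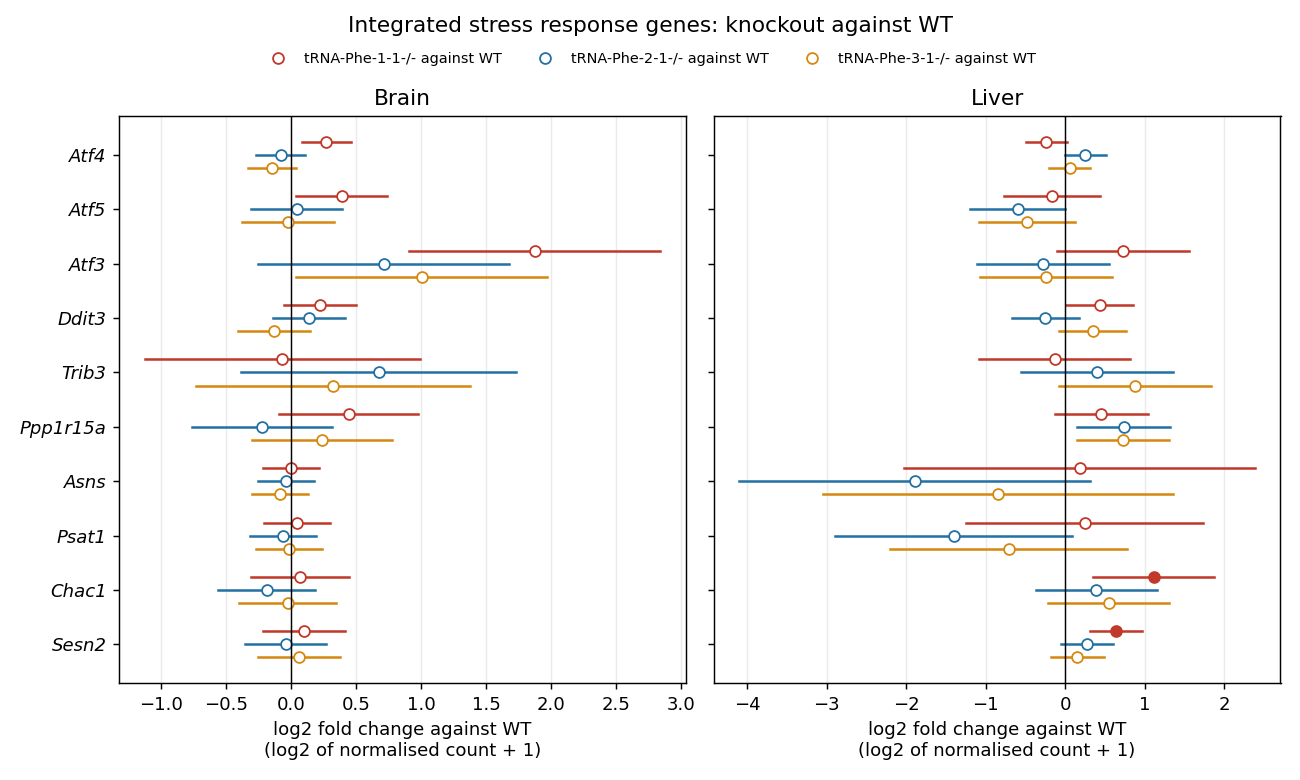
Log2 difference of each member from WT (horizontal axis, log2 of normalised count + 1) in the brain (left) and the liver (right), with 1 point per knockout line and the 95% interval as a bar; filled points passed an adjusted p of 0.05. Only Chac1 (1.11) and Sesn2 (0.64) in the tRNA-Phe-1-1-/- liver are filled, and the intervals of liver Asns and Psat1 are the widest; the 2 panels have different horizontal scales.

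In the liver, Chac1 and Sesn2 rose in tRNA-Phe-1-1-/- mice, and no member passed the threshold in the other lines. The counts were 2 of 10 for tRNA-Phe-1-1-/-, against 17.3% of all genes tested (8.27% higher and 9.08% lower), so the share among the members lay near that of all genes. They were 0 of 10 for tRNA-Phe-2-1-/-, against 0.132%, and 0 of 10 for tRNA-Phe-3-1-/-, against 0.883%; edgeR called 2, 0 and 0. With limma, 3, 1 and 1 members had an unadjusted p under 0.05, against 31.8%, 14.9% and 16.1% of all genes. The median log2 difference over the 10 members was 0.34, 0.00 and 0.10 in the 3 lines, compared with -0.01, 0.00 and 0.01 over all genes, and the estimate was above 0 for 7, 5 and 6 members, against 49.4%, 50.2% and 51.3% of all genes.

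Sesn2 had 211, 155 and 148 normalised counts in the WT liver. The tRNA-Phe-1-1-/- liver had 253, 264 and 274, the tRNA-Phe-2-1-/- liver 180.3, 216 and 219, and the tRNA-Phe-3-1-/- liver 182, 180.0 and 202. All 3 tRNA-Phe-1-1-/- samples stood above the other 9 and close to each other. Sesn2 was higher than in WT by 0.64 ± 0.15 on the log2 scale (95% interval 0.31 to 0.97, adjusted p = 0.0147) and higher than in tRNA-Phe-3-1-/- by 0.49 ± 0.15 (adjusted p = 0.0486). It was the single member called by the test of any difference among the 4 genotypes (adjusted p = 0.0478; 1 of 10 against 17% of all genes).

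The Sesn2 call against WT was lost without WT replicate B (adjusted p = 0.0560) or WT replicate C (0.0643). The call against tRNA-Phe-3-1-/- was lost, with adjusted p between 0.0527 and 0.108, on leaving out any replicate of a knockout line or WT replicate B. In the GENCODE genes for GRCm39, Sesn2 shares its strand with the long non-coding gene Gm12981.

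Chac1 had 52.8, 77.1 and 48.0 normalised counts in the WT liver and 118, 81.1 and 212 in the tRNA-Phe-1-1-/- liver. The other lines had 76.1, 85.9 and 68.2 (tRNA-Phe-2-1-/-) and 110.5, 97.9 and 57.3 (tRNA-Phe-3-1-/-). Replicate C of tRNA-Phe-1-1-/- was by far the highest, replicate B was just above the highest WT sample, and the 2 groups did not overlap. The log2 difference was 1.11 ± 0.35 (95% interval 0.35 to 1.87, adjusted p = 0.0474). It lost its call, with adjusted p between 0.0515 and 0.153 and a log2 difference between 0.74 and 1.31, on leaving out any replicate of WT or tRNA-Phe-2-1-/-, replicate A or C of tRNA-Phe-1-1-/- or replicate B of tRNA-Phe-3-1-/-. In the other lines the log2 differences of Chac1 were 0.39 ± 0.35 (adjusted p = 0.623) and 0.55 ± 0.35 (adjusted p = 0.477).

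Ddit3 had 125, 131 and 163 normalised counts in the WT liver, 229, 140.2 and 207 in tRNA-Phe-1-1-/-, 117, 128 and 106 in tRNA-Phe-2-1-/- and 182, 189 and 159.9 in tRNA-Phe-3-1-/-. The tRNA-Phe-1-1-/- samples overlapped WT through replicate B and stood above all tRNA-Phe-2-1-/- samples. Ddit3 was higher in tRNA-Phe-1-1-/- than in tRNA-Phe-2-1-/- mice by 0.68 ± 0.19 on the log2 scale (adjusted p = 0.0332), and its difference from WT was 0.43 ± 0.19 (adjusted p = 0.145). Leaving out replicate A or C of tRNA-Phe-1-1-/- or any replicate of tRNA-Phe-2-1-/- ended the first call, with adjusted p between 0.0668 and 0.123, and leaving out replicate B of tRNA-Phe-1-1-/- gave the second a call (log2 difference 0.64, adjusted p = 0.0303).

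Atf4 mRNA itself had 3964, 3315 and 3089.8 normalised counts in the WT liver and 3024, 2980.1 and 2734 in the tRNA-Phe-1-1-/- liver. The tRNA-Phe-2-1-/- liver had 4557, 4054 and 3721, and the tRNA-Phe-3-1-/- liver 3478, 4097 and 3198. The tRNA-Phe-1-1-/- samples were the lowest 3 of the 12, just under the lowest WT sample. The log2 difference from WT was -0.24 ± 0.12 (adjusted p = 0.191), and Atf4 was lower than in tRNA-Phe-2-1-/- mice by 0.49 (log2 difference -0.49 ± 0.12, adjusted p = 0.0170).

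Atf4 lost the call against tRNA-Phe-2-1-/- without replicate A (adjusted p = 0.0644) or B (0.0568) of tRNA-Phe-2-1-/-. With Ddit3 this made 2 of 10 members called between these lines in the liver, against 15.9% of all genes. Sesn2 was the 1 of 10 called in tRNA-Phe-1-1-/- compared with tRNA-Phe-3-1-/- mice, against 16.1%. For tRNA-Phe-2-1-/- compared with tRNA-Phe-3-1-/- there were 0 of 10 against 0% by limma, with Ddit3 alone at an unadjusted p under 0.05, against 6.68% (log2 difference -0.59 ± 0.19, adjusted p = 0.644), and 0 by edgeR.

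Atf5, Atf3, Trib3 and Ppp1r15a were not called against WT in the liver. Atf5 had 4023, 4038 and 3714 normalised counts in WT, 2578, 6076 and 2737 in tRNA-Phe-1-1-/-, 2487, 2409.7 and 2887 in tRNA-Phe-2-1-/- and 3693, 2646 and 2274 in tRNA-Phe-3-1-/-. Replicate B of tRNA-Phe-1-1-/- was the highest of the 12 while its other replicates and all samples of the other lines lay below WT. The log2 differences were -0.16 ± 0.28, -0.60 ± 0.28 and -0.48 ± 0.28 (adjusted p = 0.730, 0.336 and 0.428). Without replicate B of tRNA-Phe-1-1-/-, the first became -0.56 with an adjusted p of 0.0459. With only the 6 samples compared, the second had an adjusted p of 0.0388.

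Ppp1r15a had 214, 237 and 237 normalised counts in the WT liver, 449.8, 261 and 264 in tRNA-Phe-1-1-/-, 274, 494 and 411 in tRNA-Phe-2-1-/- and 353, 514 and 301 in tRNA-Phe-3-1-/-. All 9 knockout samples lay above all 3 WT samples. The log2 differences were 0.45 ± 0.27, 0.73 ± 0.27 and 0.72 ± 0.27 (adjusted p = 0.273, 0.250 and 0.212), and the 3 comparisons share the WT samples. For Atf3 the liver values were 36.2, 34.6 and 51.9 in WT and 82.8, 95.2 and 37.9 in tRNA-Phe-1-1-/-, which overlapped through replicate C. The log2 difference of Atf3 was 0.72 ± 0.38 (adjusted p = 0.218), and without that replicate it was 1.12 (adjusted p = 0.0491). Trib3 ranged from 72.1 to 297 over the 12 liver samples, and its estimate furthest from 0 was 0.87 ± 0.44 in tRNA-Phe-3-1-/- mice (adjusted p = 0.359).

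Groups that did not overlap with WT in the liver were seen for 4 of 10 members in tRNA-Phe-1-1-/- (Chac1, Sesn2 and Ppp1r15a above, Atf4 below), against 34.8% of all genes. They were seen for 4 of 10 in tRNA-Phe-2-1-/- (Ppp1r15a above; Atf5, Asns and Psat1 below), against 25.4%. For tRNA-Phe-3-1-/- there were 2 of 10, Ppp1r15a above and Atf5 below, against 19.9%.

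The amino acid synthesis enzymes Asns and Psat1 varied more between liver samples of the same genotype than any other member. Asns had 429, 1969.8 and 822 normalised counts in WT, 529.8, 3599 and 529 in tRNA-Phe-1-1-/-, 244, 198 and 277 in tRNA-Phe-2-1-/- and 2437, 114 and 425 in tRNA-Phe-3-1-/-. Psat1 had 73.3, 189 and 104 in WT, 115, 384 and 54.2 in tRNA-Phe-1-1-/-, 54.5, 35.9 and 37.8 in tRNA-Phe-2-1-/- and 155, 31.5 and 65.3 in tRNA-Phe-3-1-/-. For both genes replicate B was high in WT and tRNA-Phe-1-1-/- and low in tRNA-Phe-3-1-/-, where replicate A was high, and all tRNA-Phe-2-1-/- samples were below WT.

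The highest liver sample of Asns had 31.7 times the normalised counts of the lowest, and the highest of Psat1 12.2 times. The residual SD of Asns within genotypes was 1.48 on the log2 scale, higher than that of 98.9% of the liver genes tested, and that of Psat1 was 0.98, higher than that of 96.9%, while the median of all genes was 0.23. In the brain the same SDs were 0.12 and 0.15, below the median of 0.21. The log2 differences in the tRNA-Phe-2-1-/- liver were therefore -1.90 ± 1.01 for Asns (adjusted p = 0.400) and -1.41 ± 0.68 for Psat1 (adjusted p = 0.361). Next among the members in the liver came Trib3, with a residual SD of 0.62, and the lowest were Sesn2 at 0.17 and Atf4 at 0.15.

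Asns and Psat1 varied together over the 12 liver samples. On the log2 scale Pearson's r was 0.947 (permutation p = 1e-05, the smallest that 100000 permutations can give; adjusted over 90 pairs 0.0009) and Spearman's rho was 0.930 (permutation p = 7e-05, adjusted 0.0063). Without the 2 samples farthest from the median of Asns, r was 0.924, and after subtraction of each genotype's mean it was 0.926. Atf5 followed with r = 0.807 for Psat1 and 0.792 for Asns (both adjusted permutation p = 0.0475), but with rho of 0.636 and 0.706 (adjusted permutation p = 0.287 and 0.209) and with r of 0.529 and 0.585 without the 2 farthest samples, so these relations rested in part on those samples. In the brain the 1 pair past the threshold was Atf4 with Atf5 (r = 0.849, adjusted permutation p = 0.0225), with rho at 0.762 (adjusted permutation p = 0.209) and r at 0.619 without the 2 farthest samples. The permutations ran across genotypes, so these p-values also take in differences between genotypes. After subtraction of each genotype's mean, r was 0.725 for Atf4 with Atf5 in the brain. It was 0.748 and 0.733 for Atf5 with Psat1 and Asns in the liver, each without a test. Over the 45 pairs of a tissue, the median r was 0.194 for brain samples and 0.00025 for liver samples.

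Phgdh, the enzyme that acts before Psat1 in serine synthesis, was looked at after its values had been seen. It had 4.89, 66.2 and 25.9 normalised counts in the WT liver, 23.5, 354 and 2.05 in tRNA-Phe-1-1-/-, 6.41, 6.52 and 4.61 in tRNA-Phe-2-1-/- and 80.7, 7.88 and 10.1 in tRNA-Phe-3-1-/-. Its highest samples, replicate B of tRNA-Phe-1-1-/-, replicate A of tRNA-Phe-3-1-/- and replicate B of WT, were those in which Asns was highest.

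**Figure D3:**
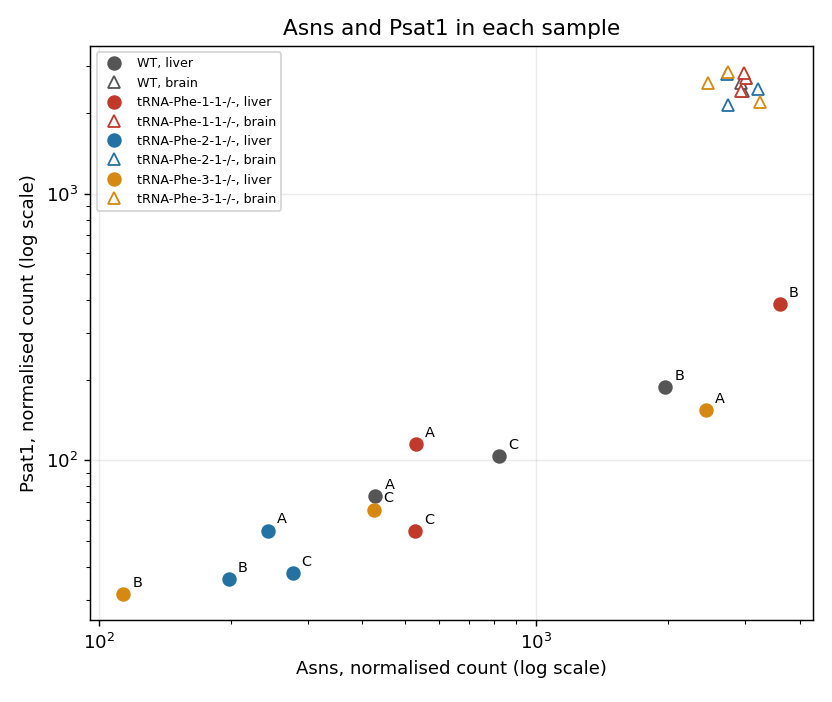
Psat1 (vertical axis) against Asns (horizontal axis), both in normalised counts on log scales, with 1 filled circle per liver sample (letter = replicate) and 1 open triangle per brain sample; colours mark the genotype. The 12 liver samples run along a diagonal from 114 to 3599 in Asns, with genotypes intermixed except that the 3 tRNA-Phe-2-1-/- samples are all low, while the brain samples form 1 cluster; the 2 tissues were normalised separately.

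Markers of other cells also moved with the tRNA-Phe-1-1-/- liver. The 4 neutrophil markers summed to 69.6 to 220.4 normalised counts there and to 7.82 to 33.6 in WT, with Ly6g and Mpo at most 2.65 and 5.19 in any liver sample. The 3 stellate cell markers summed to 5794 to 6536 against 4589 to 5217, and the 3 erythroid markers to 8819 to 10742 against 15235 to 19345. The 4 hepatocyte markers summed to 1821510 to 2336550 against 2418720 to 3073050. Livers of tRNA-Phe-2-1-/- mice also had hepatocyte sums below WT (1998770 to 2247810) and stellate sums above WT (5360 to 6797). Their neutrophil sums (9.22 to 37.0) and erythroid sums (14663 to 28544) overlapped WT. In tRNA-Phe-3-1-/- livers the hepatocyte sums (2590240 to 3146510) and stellate sums (5009 to 5421) overlapped WT, while erythroid sums (19725 to 24717) lay above. The part of these marker sums in the liver results was not tested.

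The difference from WT in tRNA-Phe-1-1-/- mice itself passed the test for a difference between the tissues for Atf4 alone among the members. The brain difference minus the liver difference was 0.51 ± 0.15 on the log2 scale (adjusted p = 0.0416; 1 of 10 members, against 6.94% of 14456 genes). For Chac1 it was -1.05 ± 0.40 (adjusted p = 0.129) and for Sesn2 -0.54 ± 0.21 (adjusted p = 0.132), which did not pass with all libraries. Chac1 passed without liver tRNA-Phe-1-1-/- replicate B (-1.36, adjusted p = 0.0349), as did Atf5 (0.95, adjusted p = 0.0182), and Sesn2 passed without liver WT replicate A (-0.69, adjusted p = 0.0396). With all libraries, no member passed in the other lines, 0 of 10 against 0.0346% for tRNA-Phe-2-1-/- and 0 of 10 against 0.45% for tRNA-Phe-3-1-/-. The fit took all 24 samples as independent, with 1 spread per gene shared by both tissues. Whether brain and liver samples came from the same mice is not known. Within genotypes the residual SD of Atf4 was 0.10 in the brain and 0.15 in the liver. The Atf4 call was lost in 13 of the 24 fits without 1 library (adjusted p between 0.0506 and 0.106): without any tRNA-Phe-1-1-/- replicate of either tissue, any brain WT replicate, liver WT replicate A or B, brain tRNA-Phe-2-1-/- replicate A or liver tRNA-Phe-2-1-/- replicate B.

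Other genes of the stress pathways were described from lists, each gene tested in the same comparisons. These lists were chosen with earlier results of these data known. Their counts beside the share of all genes are therefore a description and no test of the lists. The lists held 18 genes of eIF2 signalling and the guanine exchange factor eIF2B, 18 of amino acid synthesis and transport, 12 aminoacyl-tRNA synthetases known as Atf4 targets, 15 other genes linked to Atf4, 16 ER chaperones and other genes of the unfolded protein response (UPR), and 11 immediate early genes, which respond within minutes to cell stimulation.

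In the tRNA-Phe-1-1-/- brain the ER chaperones and UPR genes had the most calls, with 5 of 16 higher and 0 lower, against 0.624% and 0.426% of all genes, and a median log2 difference of 0.39. Hspa5, the chaperone BiP, rose by 0.84 ± 0.13 (adjusted p = 0.0198), from 9448, 9147 and 7782 normalised counts in WT to 14754, 15118 and 17260.1. Its cofactor Sdf2l1 rose by 1.06 ± 0.17 (adjusted p = 0.0202), the disulfide isomerase Pdia4 by 0.67 ± 0.11 (adjusted p = 0.0218) and the UPR transcription factor Xbp1 by 0.44 ± 0.08 (adjusted p = 0.0393). Calls in this list fell to 0 without WT replicate B or C or tRNA-Phe-1-1-/- replicate B or C, and to 3 without WT replicate A or tRNA-Phe-3-1-/- replicate A.

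Of the Atf4-linked lists in the same brain comparison, where 1.05% of all genes were called, amino acid synthesis and transport had 1 of 18 called. This was Gpt2, a mitochondrial alanine transaminase, with 1860.5, 1827 and 1833 normalised counts in WT and 2859.9, 3174 and 2849 in tRNA-Phe-1-1-/-, a rise of 0.68 ± 0.08 (adjusted p = 0.00813), and the call was lost without WT replicate C. The other Atf4-linked genes had 1 of 12 tested, Ddit4, an inhibitor of mTORC1, with 630.4, 531 and 554 in WT and 818, 1446 and 1115 in tRNA-Phe-1-1-/-. Ddit4 rose by 0.94 ± 0.17 (adjusted p = 0.0376), and this count was 0 in 8 of the 12 fits with 1 library left out (each WT replicate, replicates B and C of tRNA-Phe-1-1-/-, A and B of tRNA-Phe-2-1-/- and A of tRNA-Phe-3-1-/-).

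The remaining lists had 0 called by limma in the tRNA-Phe-1-1-/- brain. Over all genes 1.05% were called there and 15.9% had an unadjusted p under 0.05. Of eIF2 signalling 0 of 18 passed (1 at an unadjusted p under 0.05), with Ppp1r15b, the constitutive eIF2 phosphatase subunit, lowest in adjusted p (0.22 ± 0.08, adjusted p = 0.199). Of the tRNA synthetases 0 of 12 passed (1 unadjusted), with Iars1 at -0.42 ± 0.16 (adjusted p = 0.228), and of the immediate early genes 0 of 11 (2 unadjusted), with Fosb at 1.15 ± 0.27 (adjusted p = 0.0759). The medians of these lists were 0.04, 0.00 and 0.10.

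In the tRNA-Phe-1-1-/- liver, 10 of 16 ER chaperones and UPR genes were called higher and 0 lower, with a median log2 difference of 0.72, compared with 8.27% of all genes called higher. Sdf2l1 rose by 1.38 ± 0.21 (adjusted p = 0.00142), from 1323, 777 and 965 normalised counts to 2749.7, 2629 and 2444. Creld2, a secreted ER stress protein, rose by 2.11 ± 0.35 (adjusted p = 0.00216), the ER stress sensor Atf6 by 0.45 ± 0.08 (adjusted p = 0.00364) and the chaperone Hyou1 by 1.07 ± 0.21 (adjusted p = 0.00603). Without tRNA-Phe-1-1-/- replicate A the count was 6.

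The other Atf4-linked genes had 4 called higher and 2 lower of 14 in that liver, against 8.27% and 9.08% of all genes. The list's median was 0.16. Cebpb, a C/EBP factor that can pair with Atf4, had 764, 661 and 484 normalised counts in WT and 2667, 2678 and 2671 in tRNA-Phe-1-1-/-, a rise of 2.09 ± 0.22 (adjusted p = 0.000195). Its relative Cebpg rose by 0.72 ± 0.12 (adjusted p = 0.00248) and Jdp2, a bZIP repressor, by 1.80 ± 0.38 (adjusted p = 0.00808). Vldlr, the very low density lipoprotein receptor, fell by 2.57 (log2 difference -2.57 ± 0.67, adjusted p = 0.0235). This count was 3 without WT replicate B or C.

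Amino acid synthesis and transport had 3 called higher and 1 lower of 15, against 8.27% and 9.08% of all genes. The list's median was 0.44. The neutral amino acid transporters Slc38a2 and Slc1a5 rose by 1.18 ± 0.23 (adjusted p = 0.00552) and 1.18 ± 0.26 (adjusted p = 0.00966), and Gpt2 by 0.61 ± 0.16 (adjusted p = 0.0223). Cth, which makes cysteine from cystathionine, fell by 0.98 (log2 difference -0.98 ± 0.24, adjusted p = 0.0174). Slc38a2 had 4062, 3623 and 3510.1 normalised counts in WT and 6790.5, 13193 and 6658 in tRNA-Phe-1-1-/-, with replicate B again the highest. This count was 2 without WT replicate B or C or tRNA-Phe-1-1-/- replicate A.

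Of the tRNA synthetases in that liver, 6 were called higher and 1 lower of 12, against 8.27% and 9.08% of all genes. The list's median was 0.21. Sars1 rose by 0.40 ± 0.08 (adjusted p = 0.00603), Wars1 by 0.50 ± 0.11 (adjusted p = 0.0102) and Nars1 by 0.28 ± 0.08 (adjusted p = 0.0321). These charge tRNAs with serine, tryptophan and asparagine. Tars1, for threonine, had 8325, 7767 and 7649 normalised counts in WT and 4582, 4893 and 4958 in tRNA-Phe-1-1-/- and fell by 0.72 (log2 difference -0.72 ± 0.11, adjusted p = 0.00189). The count of 7 was 3 or 4 without any one replicate of WT or of tRNA-Phe-2-1-/- or without replicate A or B of tRNA-Phe-1-1-/-.

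Of eIF2 signalling 2 were called higher and 1 lower of 18, with a median of 0.19. Over all genes 8.27% were called higher and 9.08% lower in that liver, so the list lay near the share of all genes. The eIF2B subunits Eif2b1 and Eif2b4 rose by 0.47 ± 0.12 (adjusted p = 0.0226) and 0.44 ± 0.12 (adjusted p = 0.0271), and Oma1, a mitochondrial stress protease, fell by 0.43 (log2 difference -0.43 ± 0.11, adjusted p = 0.0197). This count was 0 without WT replicate B and 1 without WT replicate C or tRNA-Phe-1-1-/- replicate A. Of the immediate early genes 0 of 8 tested passed by limma (2 unadjusted, against 31.8% of all genes), with Junb at 1.22 ± 0.42 (adjusted p = 0.0699).

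**Figure D4:**
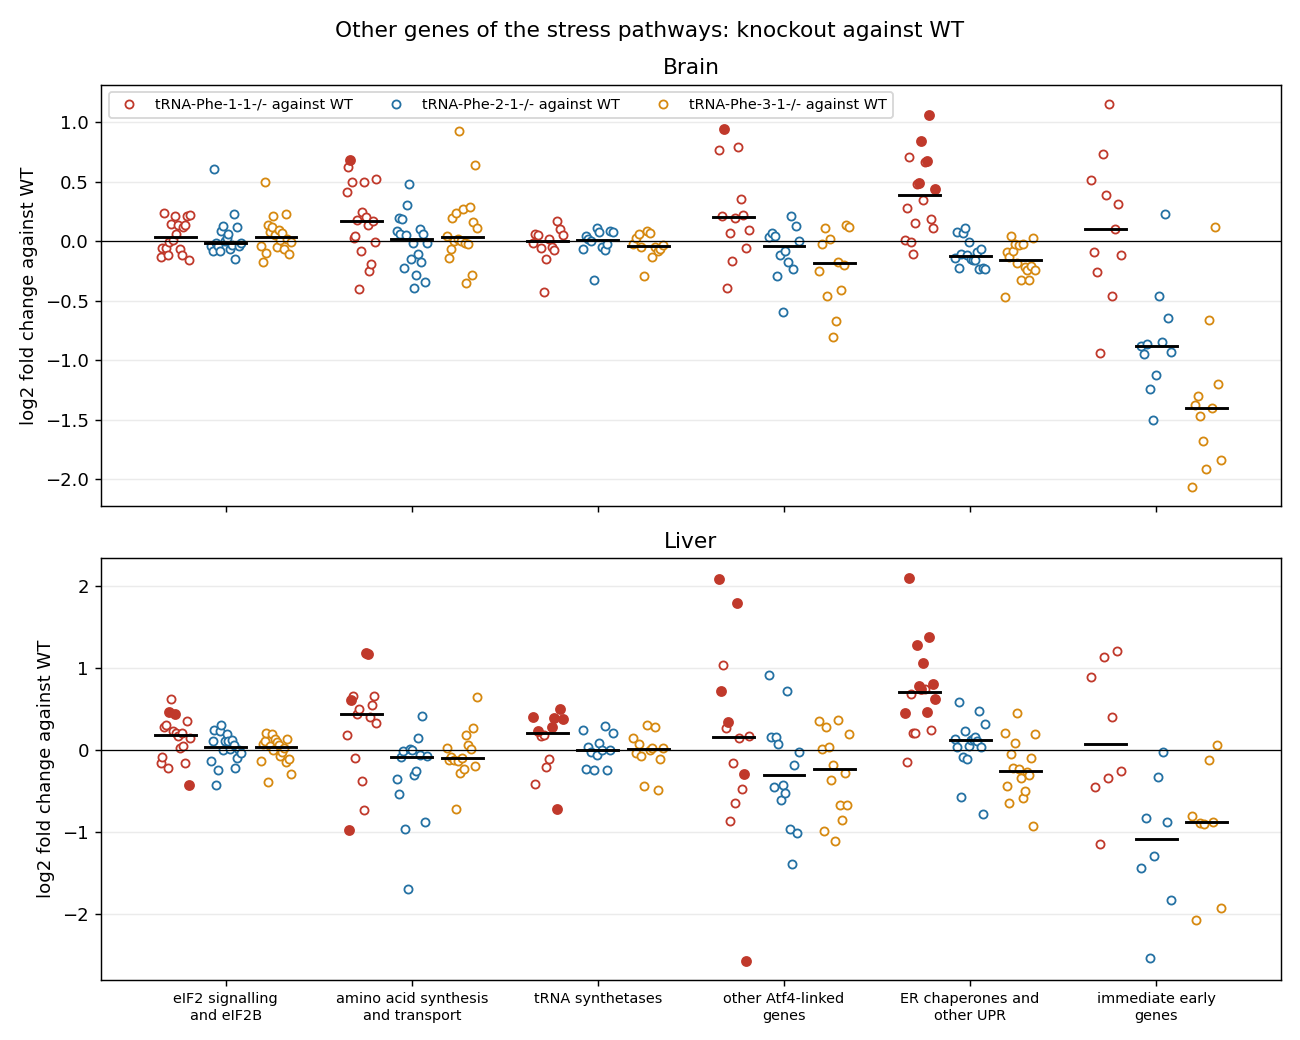
Log2 difference from WT (vertical axis, log2 of normalised count + 1) of every tested gene of the 6 lists in the brain (top) and the liver (bottom); each point is 1 gene, filled where its adjusted p was under 0.05, and each bar is the list's median. Filled points occur in the tRNA-Phe-1-1-/- comparisons alone, and the ER chaperone list has medians of 0.39 (brain) and 0.72 (liver) there; the 2 panels have different vertical scales.

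In the other lines none of the 6 lists had a gene past the threshold by limma in either tissue, and the differences between lines were not tested for the lists. In the order in which the lists are given above, the genes at an unadjusted p under 0.05 were 1, 1, 0, 2, 1 and 6 in the tRNA-Phe-2-1-/- brain and 1, 3, 0, 3, 5 and 10 in the tRNA-Phe-3-1-/- brain. In the liver they were 2, 2, 1, 2, 3 and 2 in tRNA-Phe-2-1-/- and 2, 1, 3, 4, 6 and 2 in tRNA-Phe-3-1-/- mice. Of all genes, 5.57% had such a p in the tRNA-Phe-2-1-/- brain and 12.3% in the tRNA-Phe-3-1-/- brain. In the livers of these lines the shares were 14.9% and 16.1%. The genes tested in each list were those tested for tRNA-Phe-1-1-/- in the same tissue. In the tRNA-Phe-2-1-/- brain the lowest adjusted p was 0.892 or more in every list, in genes such as Xbp1 (-0.23 ± 0.08), Gadd45a (-0.60 ± 0.19), Eif2ak2 (0.60 ± 0.23), Egr2 (-1.50 ± 0.41), Slc38a2 (-0.28 ± 0.12) and Iars1 (-0.33 ± 0.16). In the tRNA-Phe-3-1-/- brain it was reached by Arc (-2.07 ± 0.43, adjusted p = 0.158), Jdp2 (-0.67 ± 0.15, adjusted p = 0.169), Slc1a4 (0.27 ± 0.08, adjusted p = 0.240), Xbp1 (-0.24 ± 0.08, adjusted p = 0.289), Eif2ak1 (-0.18 ± 0.07, adjusted p = 0.361) and Iars1 (-0.30 ± 0.16, adjusted p = 0.500). The median of the immediate early genes was -0.88 in the tRNA-Phe-2-1-/- brain and -1.40 in the tRNA-Phe-3-1-/- brain, where 10 of 11 at an unadjusted p under 0.05 compare with 12.3% of all genes. These 11 genes were measured in the same samples and are not separate observations. Their summed normalised counts ran from 10734 to 25875 in WT brains, 6680 to 13871 in tRNA-Phe-2-1-/- and 4321 to 8288 in tRNA-Phe-3-1-/-.

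In the tRNA-Phe-2-1-/- liver the lowest adjusted p of each list belonged to Cebpb (0.92 ± 0.22, adjusted p = 0.112), Syvn1 (-0.77 ± 0.20, adjusted p = 0.134), Sars1 (0.30 ± 0.08, adjusted p = 0.144), Egr1 (-2.53 ± 0.90, adjusted p = 0.240), Eif2b5 (0.19 ± 0.07, adjusted p = 0.249) and Pck2 (-0.96 ± 0.42, adjusted p = 0.320). In the tRNA-Phe-3-1-/- liver it belonged to Syvn1 (-0.93 ± 0.20, adjusted p = 0.0557), Tars1 (-0.48 ± 0.11, adjusted p = 0.0736), Dusp1 (-2.08 ± 0.55, adjusted p = 0.0994), the uncharged tRNA sensor Eif2ak4, which is Gcn2 (-0.39 ± 0.10, adjusted p = 0.102), Eif4ebp1 (0.29 ± 0.09, adjusted p = 0.152) and Slc7a5 (0.65 ± 0.26, adjusted p = 0.248).

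Since the deleted genes encode phenylalanine tRNA, the phenylalanine codons of the members' canonical coding sequences were counted as a description. Asns had most, 33 of 561 codons (5.88%, of which 22 were TTT and 11 TTC), a higher share than in 83.6% of 21551 coding genes. Psat1 followed with 4.87%. The other 8 members lay below the median of all genes, 3.74%, from Chac1 with 3.59% and Atf4 with 12 of 349 codons (3.44%) down to Ddit3 with 2 of 168 (1.19%). Of the members that rose in the tRNA-Phe-1-1-/- liver, Chac1 and Sesn2 had 3.59% and 3.33%.

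To describe which genes ran most like the members, the log2 values of each member were standardised and averaged over the 10 members in each of the 12 samples of a tissue. In the brain this mean was most like Cdv3 (r = 0.969), Cnpy4 (r = 0.934) and Ier3 (r = 0.929). In the liver it was most like Prkch (r = 0.973), Serpina3g (r = 0.958) and Cd53 (r = 0.926). These are the 3 highest correlations in each tissue among tested protein-coding genes outside the lists that had a symbol. They were taken over samples that share library and genotype, and are given without a test.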

How the data were processed

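Sample titles gave each sample's tissue, genotype and replicate letter. According to the methods of the study, the authors used Trim Galore for trimming and STAR for alignment to GRCm38.p6 with GENCODE genes, estimated reads per transcript with Salmon with regard to strand, and analysed genes with DESeq2, tissue by tissue. The deposited tables hold normalised counts (a signal: estimated reads divided by 1 size factor per sample), which assumes that most genes did not change. A further 12 deposited tables hold the authors' own fold changes and s-values and were not used. There were 0 columns without a sample. All values were whole multiples of 1 step per sample (tolerance 0.01), which gave the recovered reads.

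The test was limma 3.58.1 with a variance trend, in R 4.3.3, on log2(normalised count + 1) for genes with a mean of at least 10, on the 12 samples of a tissue or, for differences between tissues, on all 24. Benjamini-Hochberg adjustment of the two-sided p-values covered all genes tested, with a threshold of 0.05; for 3 against 3 samples the smallest p of an exact permutation test is 0.1. Replicates are taken to be separate mice. They differed by more than sampling noise in every pair. edgeR 4.0.16 (quasi-likelihood, on the recovered reads) was an alternative, beside other pseudocounts (0.1 and 5), no filter, quantile normalisation, no trend, the replicate letter as a block, only the 6 samples compared, and each library left out. The procedure was tested on simulated counts. The members and gene lists were chosen with earlier results of these data known. All 10 members are named in every comparison with WT; of each list the up to 4 called genes with the lowest adjusted p are named, or the 1 lowest where none was called. Symbols (matched for 93.2% of identifiers), transcript lengths, codons and overlaps between genes came from GENCODE (GRCm39). Positions and promoters came from RefSeq for GRCm38.p6, and no GENCODE positions are given.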

Additional observations from a re-analysis of the deposited data

Results flagged for a closer look

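The difference between tRNA-Phe-1-1-/- and WT mice in Atf4 differed between brain and liver by 0.51 ± 0.15 on the log2 scale (limma, brain minus liver, adjusted p = 0.0416). Atf4 was 1 of 10 members called, against 6.94% of 14456 genes, in a fit that took brain and liver samples as independent. Atf4 was estimated 0.27 ± 0.09 above WT in the brain, where all 3 tRNA-Phe-1-1-/- samples were above all 3 WT samples, and -0.24 ± 0.12 from WT in the liver, where all 3 were below. Neither difference passed the threshold on its own. The difference between tissues kept its direction in all 24 fits without 1 library, from 0.41 to 0.59, with adjusted p from 0.0270 to 0.106. It was not called in 13 of them: without any replicate of tRNA-Phe-1-1-/- in either tissue, any brain WT replicate, liver WT replicate A or B, brain tRNA-Phe-2-1-/- replicate A or liver tRNA-Phe-2-1-/- replicate B. With the oligodendrocyte marker sums lower in the tRNA-Phe-1-1-/- brain and the neutrophil sums higher in its liver, as given above, their part in this difference was not tested.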

How the results depend on the processing

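No called member changed direction under any alternative. Of 3300 values for single genes under an alternative, 3219 kept their side of the threshold, 71 lost a call, 10 gained one and 0 turned direction with a call; the cause of these shifts was not tested. Of the 3219, 89 had an estimate on the other side of 0, none of them called (lowest adjusted p 0.619). Other pseudocounts changed no count of members, and edgeR gave the same counts of members as limma. The brain Atf4 difference of tRNA-Phe-1-1-/- from tRNA-Phe-3-1-/- mice (1 of 10 called) was not called (0) with no filter, quantile normalisation, no trend or the 6 samples only. In the tRNA-Phe-1-1-/- liver against WT, the count of 2 was 1 with no filter or no trend and 0 with the 6 samples only; for tRNA-Phe-2-1-/- it was 1 instead of 0 with the 6 samples only. For the tRNA-Phe-1-1-/- liver against that of tRNA-Phe-2-1-/- the count of 2 was 1, and against that of tRNA-Phe-3-1-/- the count of 1 was 0, with no filter, quantile normalisation or the 6 samples only. The liver count for any difference among genotypes and the count for the difference between tissues (1 each) were 0 with no filter, quantile normalisation or no trend.

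The replicate letters did not pair the samples across all genotypes: same-letter correlations of deviations ran from -0.164 to 0.492 in the brain, with 7 of 18 above 0.1, and from -0.294 to 0.236 in the liver, with 3 of 18. Brain tRNA-Phe-2-1-/- with tRNA-Phe-3-1-/- was the one genotype pair with all 3 letters above 0.1 (A 0.132, B 0.205, C 0.492), and its count of members was 0 with and without the block. With the replicate letter as a block, the liver counts of members were 1 for tRNA-Phe-1-1-/- against WT (Chac1 adjusted p = 0.0804), 1 against tRNA-Phe-2-1-/- and 0 against tRNA-Phe-3-1-/-; the Atf4 difference between tissues stayed called (1, adjusted p = 0.0438), as did Atf4 in the brain (1, adjusted p = 0.0498), and all counts of 0 stayed 0.

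Leaving out 1 library at a time gave 0 to 4 members in the tRNA-Phe-1-1-/- liver against WT, 0 to 3 against tRNA-Phe-2-1-/-, 0 to 1 against tRNA-Phe-3-1-/- in each tissue, 0 to 2 for any difference in the liver and 0 to 2 for the difference between tissues; all other counts of members stayed 0. An arm left with 2 samples was fitted with the spread shared by all groups.

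List counts under alternatives were computed after the data had been seen, for tRNA-Phe-1-1-/- against WT. In the brain, the ER chaperone count of 5 was 3 with no filter, quantile normalisation, no trend or the 6 samples only (0 to 6 without 1 library), the other Atf4-linked count of 1 was 0 with no trend, the block or the 6 samples only (0 to 1), and the amino acid count of 1 was 2 with the block (0 to 1). In the liver, the synthetase count of 7 was 3 with no filter, no trend, the block or the 6 samples only (3 to 7), and the eIF2 count of 3 was 1 with the 6 samples only (0 to 4); without 1 library, the counts were 2 to 5 for amino acids, 3 to 6 for other Atf4-linked genes and 6 to 13 for ER chaperones. In all, 3 samples a group set the precision. Liver Asns and Psat1 had the widest spread within genotypes, with residual SDs of 1.48 and 0.98 on the log2 scale. Among the brain values, those of Atf3 and Trib3, at 4.51 to 51.1 normalised counts, were the least precise (residual SDs 0.55 and 0.60). The mRNA levels give neither Atf4 protein nor its translation.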
